A study of Mus musculus with 3 samples.

Results

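The gene clusters described here are those of the deposited table whose only name was a transcript identifier of the uc type, such as uc008gfj.1. They had an exonic length, no read value below 0, a place outside the mitochondrial genome and 30 or more reads summed over the 3 libraries. The members were thus chosen by their name and selected on their summed reads, so their levels are a description. They numbered 2002 of the 27389 clusters of the table. Identifier-only clusters numbered 8957 in all, of which 8804 could be used. Of the 8804, 4912 had 0 reads in all 3 libraries and 1890 had 1 to 29 reads. A further 18432 clusters carried a gene symbol, and the 11798 of these with 30 or more reads served for comparison.

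Transcript identifiers of this type come from a catalogue of known genes that is built by aligning RNA and protein records to the genome. In the table, most clusters carry a symbol and the others keep an identifier alone. Records without a symbol can be noncoding RNAs, unnamed coding genes, pieces of long untranslated exons, transcripts primed inside introns, antisense transcripts and copies of processed messenger RNAs. Poly(A)+ RNA ends at a site that usually lies shortly after a poly(A) signal hexamer, and stretches of genomic adenines can also bind an oligo(dT) primer.

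The table came from mouse CAD cells, a neuroblastoma line of catecholaminergic neurons, transfected with control siRNAs, with siRNAs against Ptbp1, or with siRNAs against Ptbp1 and Ptbp2. Ptbp1 encodes a polypyrimidine tract binding protein that regulates splicing, and Ptbp2 encodes its neuronal paralogue. All 3 groups were the same cell line with ON-TARGETplus reagents and Lipofectamine 2000, and RNA was taken 72 h after transfection. Each group had 1 library, so no difference has a replicate check and no p-value is given.

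The clusters held 16011466, 16899549 and 14242495 reads in the control, Ptbp1 siRNA and Ptbp1 plus Ptbp2 siRNA libraries, the order kept throughout. Members held 4.42%, 4.37% and 4.36% of them. Ptbp1 had 7191, 1486 and 1516 reads, and Ptbp2 had 784, 3044 and 633. All 7 catecholaminergic neuronal markers and all 4 pan-neuronal markers were at 1 RPKM or more in every library, where RPKM is reads per kilobase of exon, scaled to the size of the library. No astrocyte, oligodendrocyte, blood or microglial marker reached that level in all 3 libraries. Pecam1, 1 of 2 endothelial markers, and Acta1, 1 of 3 muscle markers, did.

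The ends of 7 members are shown because these are the members named below that differed at least 2-fold between libraries and that the gene annotation places in a noncoding gene or in no gene, where the end sequence is what describes them. Each line gives the last 60 bases of the member on its strand in build mm9, with any AATAAA or ATTAAA hexamer in capitals.
uc008gfj.1: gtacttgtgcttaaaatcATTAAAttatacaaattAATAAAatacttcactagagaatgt
uc007pba.1: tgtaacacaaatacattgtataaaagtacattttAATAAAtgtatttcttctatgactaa
uc009auf.1: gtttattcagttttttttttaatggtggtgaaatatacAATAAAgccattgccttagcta
uc008wqt.1: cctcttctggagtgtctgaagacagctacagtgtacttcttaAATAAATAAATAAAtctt
uc009akc.1: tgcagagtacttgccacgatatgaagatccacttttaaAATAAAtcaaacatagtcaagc
uc009sps.1: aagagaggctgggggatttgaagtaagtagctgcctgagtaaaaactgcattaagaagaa
uc009nib.1: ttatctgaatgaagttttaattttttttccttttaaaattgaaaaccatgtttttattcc
The windows are chr19:5798395-5798454 on the minus strand for uc008gfj.1, chr12:110899862-110899921 on the plus strand for uc007pba.1, chr5:151402507-151402566 on the minus strand for uc009auf.1, and chr5:23360683-23360742 on the plus strand for uc008wqt.1. For uc009akc.1 the window is chr5:144094320-144094379 on the plus strand, for uc009sps.1 chrX:8906101-8906160 on the minus strand, and for uc009nib.1 chr8:111050837-111050896 on the minus strand. The first 5 hold a hexamer and the last 2 do not. The search covered the member's own strand only, and the absence of these letters says nothing about other signals.

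Most members lay in annotated genes that simply had no symbol in the table. GENCODE, the mouse gene annotation on the same build, placed 925 members in a coding gene and 346 in a noncoding gene, where the gene and the member shared at least 0.5 of their joined span on the same strand. A member given a gene name below can therefore hold only a part of that gene. Of the 925 members in coding genes, 463 matched a gene with a clone-type name and 462 a gene with another name. The noncoding genes comprised 240 lincRNA genes and 106 processed transcripts. A further 478 members were a part of a larger gene or overlapped a gene by less than that. No annotated gene lay under 138 members, 94 had a gene on the opposite strand only, 18 matched a pseudogene, 1 another RNA gene, and 2 lay on unplaced sequence. An annotated transcript with the same start, end and exonic length existed for 213 members.

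**Figure D1:**
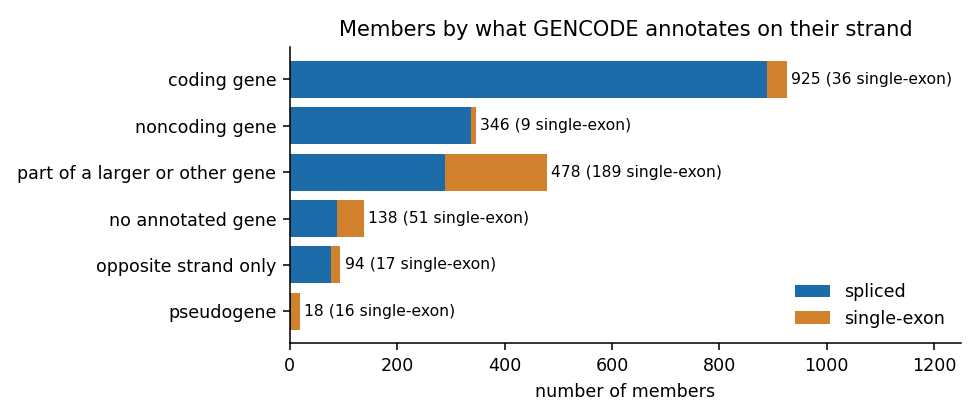
Number of members (horizontal axis) in each annotation class (vertical axis), with spliced members in blue and single-exon members in orange. Of the 478 members that were part of a larger or other gene, 189 had a single exon, against 36 of 925 in coding genes. The 3 members of other classes are not drawn.

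Members were shorter and at lower levels than clusters with a symbol, and more often unspliced. A single exon, where the exonic length equals the span, was seen in 319 members, a share of 15.9% (exact 95% binomial interval 14.4 to 17.6%), against 290 of 11798 clusters with a symbol, or 2.46%. The median exonic length was 2109 bases, against 3120.5. The median RPKM in the control library was 2.08, with quartiles of 0.699 and 6.87, against 7.32 with quartiles of 2.42 and 18.03. In the Ptbp1 siRNA library the member median was 2.18 RPKM and in the library with both siRNAs 2.24. Below 1 RPKM in the control library lay 33.0% of members and 14.4% of clusters with a symbol. Members in coding genes had a median of 3.39 RPKM and those in noncoding genes 0.877 RPKM, both in the control library.

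**Figure D2:**
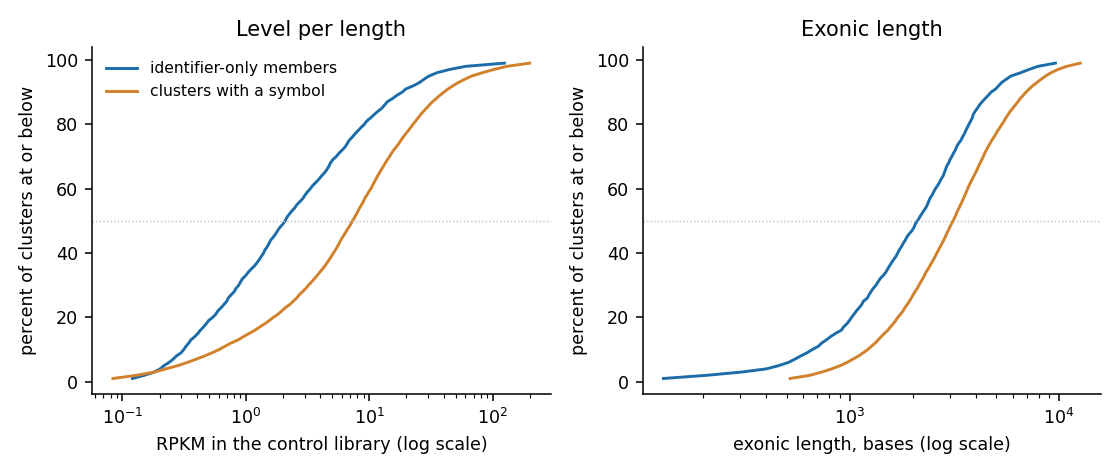
Cumulative percent of clusters (vertical axis) by control RPKM (left, log scale) and by exonic length in bases (right, log scale), for the members in blue and for clusters with a symbol and 30 or more reads in orange. The blue curves cross the 50 percent line at 2.08 RPKM and 2109 bases, to the left of the orange curves at 7.32 RPKM and 3120.5 bases.

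The read minimum cut through a continuous range. The members uc007ogg.1, uc007dls.1 and uc007cih.1 had 30 reads each, the fewest allowed, and 13 members had exactly 30. Among the 19 clusters with 29 reads, uc007agz.1 had 3, 14 and 12 reads, uc007bat.1 had 10, 13 and 6, and uc007bke.1 had 16, 10 and 3. At the other end, the 10 members with the most reads held 14.4%, 12.3% and 11.0% of all member reads.

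The highest levels per length came from a mixture of noncoding RNA, coding genes and copies. Among members with 200 or more exonic bases, uc008joj.1 had 359, 254 and 216 RPKM, the highest mean. It is a single exon of 279 bases at chr2:40412524-40412802 that overlaps an annotated pseudogene in part, and its whole length has near-identical copies elsewhere in the genome, including at Eef1a1, the translation elongation factor. The spliced uc007hrz.1 at chr11:3048819-3050541, overlapping a pseudogene model inside the span of Sfi1, had 263, 241 and 186 RPKM. The spliced uc009krv.1 at chr8:3567998-3584776, annotated as the coding gene C330021F23Rik, had 312, 230 and 139 RPKM. Of its exon bases, 25.8% have a near-identical copy elsewhere in the genome. The member uc008gfj.1 (chr19:5798395-5802671) is annotated as Malat1, the nuclear-retained long noncoding RNA, and had 316, 189 and 137 RPKM. It shares 0.613 of the joined span with the annotated gene, so its reads and its printed end are those of the cluster. The single-exon uc007rwl.1 had 228, 202 and 184 RPKM and is a copy of a stretch of Tuba1a, an alpha-tubulin. All 5 were lowest in the library with both siRNAs.

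Of the other 3 members with the highest levels, uc008nzf.1 (chr2:166888516-166891362) had 241, 136 and 167 RPKM. It is annotated as the spliced coding gene 1500012F01Rik with Snord12 snoRNA genes, guides of RNA modification, inside its span, and it starts 82 bases from Znfx1 on the opposite strand. The single-exon uc007rpq.1 (chr13:100191419-100193131) had 141, 175 and 225 RPKM and lies in the last untranslated exon of Mtap1b, which encodes a neuronal microtubule-associated protein. The single-exon uc008gpa.1 had 161, 157 and 134 RPKM and begins 146 bases past the end of Fads2, a fatty acid desaturase. The order of the libraries thus differed among these 3.

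The members with the most reads outside this group were mostly coding or overlapping transcripts at similar levels in all libraries. The spliced uc007byn.1 is Hjurp, a chaperone of centromeric histone, and had 7229, 7581 and 5364 reads. The spliced uc009bff.1 is Klhdc10, a kelch-domain protein, with 5689, 5674 and 4428 reads, and the single-exon uc007has.1 is Atxn7l3b with 3332, 3493 and 2752. None of these 3 was called in any pair. The single-exon uc008euf.1, in the untranslated exon of Dpysl3, a neuronal cytoskeleton regulator, had 4499, 5339 and 6215 reads beside 4588, 5942 and 5404 of the Dpysl3 cluster. It differed by 0.56 on the log2 scale after both siRNAs, short of a call.

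Of spliced members that overlap a symbol cluster on the other strand, those with the most reads held more than the cluster. The member uc007nxi.1, on the strand opposite Wdr89, had 3176, 3043 and 2555 reads, and Wdr89 had 56, 59 and 55. The member uc009gcs.1, opposite Zfp74, had 2844, 3375 and 2028 reads, and Zfp74 had 292, 361 and 309. The member uc007hro.1, opposite Sfi1, had 2357, 2494 and 1707 reads, and Sfi1 had 965, 954 and 607. It overlaps the pseudogene transcript Pisd-ps1 but shares only 0.144 of their joined span. Its span also contains uc007hrz.1 on the other strand, with 7296, 7111 and 4612 reads. Each of these members held more reads than its symbol cluster in all 3 libraries. They were picked for their many reads, so this does not describe the class. Members with opposite-strand overlap had a median control level of 0.862 RPKM. The single-exon uc007zgb.1, the pseudogene BC002163 inside Zbtb20, had 1028, 1102 and 1170 reads, and 96.8% of its bases have a near-identical copy elsewhere.

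The longest members were at low or moderate levels. The single-exon uc007tjj.1 spanned 29698 bases at chr14:48818390-48848087 and had 22, 16 and 12 reads, or 0.0307, 0.0210 and 0.0187 RPKM. The spliced uc008qnj.1, a lincRNA gene opposite Lix1l, had 17405 exonic bases and 518, 446 and 313 reads. The spliced uc007vdn.1, annotated as Rictor, a subunit of the mTOR complex that regulates the actin cytoskeleton, had 16944 exonic bases and 1832, 1707 and 1282 reads.

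Many members adjoined or overlapped a cluster with a symbol. The span of 396 members, 19.8% (exact 95% binomial interval 18.1 to 21.6%), shared at least 1 base with such a cluster, 145 on the same strand and 251 on the opposite strand only. Among clusters with a symbol, 965, or 8.18%, overlapped another of their kind. Without overlap, 265 members started within 1 kb of the start of a symbol cluster on the opposite strand, a head-to-head arrangement, and 218 started within 5 kb downstream of one on the same strand. The other 1123 met none of these conditions. The labels name no step that marks strand, so reads of a member and of an overlapping transcript on the other strand cannot be told apart. Spans of 40 pairs of members overlapped each other on 1 strand. In 1 of these pairs, uc009ngp.1 with 3184, 2748 and 2738 reads and uc009ngq.1 with 3184, 2752 and 2738, both forms of Chtf8, the reads agreed within 1%, so the pair is not 2 measurements.

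By content, the 319 single-exon members fell into 115 that lay mainly in an untranslated exon of a coding gene, 77 outside annotated genes of their strand, 63 in an intron, 49 in an exon of a noncoding gene or pseudogene, and 15 in coding sequence. Each was placed by the category with the largest part of its bases. A member placed in introns can thus span nearly a whole gene model, as uc007rzm.1 and uc007tjj.1 do. Median control levels were 5.40 RPKM for those in untranslated exons, 0.936 RPKM for those in introns and 16.3 RPKM for those in exons of noncoding genes or pseudogenes. Of the intronic members, uc007wbo.1 in Trappc9 had 1253, 1407 and 1390 reads and uc007dvc.1 in Hnrnpu, which encodes a nuclear RNA-binding scaffold protein, had 1245, 1319 and 1453. Both differed by less than 1.5-fold in CPM between any pair of libraries.

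The ends of intronic members differed from those of other members in sequence. AATAAA or ATTAAA stood in the last 50 bases, on the member's strand, of 1226 of 2000 members on assembled chromosomes, or 61.3%, against 69.8% of clusters with a symbol. The share was 63.5% in spliced members, 49.8% in single-exon members and 38.1% (26.1 to 51.2%) in the 63 intronic ones. The 20 genomic bases after the end held 12 or more A in 37 of the 63 intronic members, 58.7% (45.6 to 71.0%). This was so for 13.7% of all members and 6.47% of clusters with a symbol. Of the 115 members in untranslated exons, 13.9% had such an end and 62.6% a hexamer. The single-exon uc008ofb.1, in an intron of Gnas, the stimulatory G protein subunit gene, is shown as an intronic member with many reads, chosen after its values were seen, with the 20 bases past its end in capitals.
uc008ofb.1: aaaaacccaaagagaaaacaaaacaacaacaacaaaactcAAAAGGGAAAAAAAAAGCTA
The window is chr2:174159420-174159479 on the plus strand, and 14 of the 20 bases are A. This member had 1493, 1224 and 993 reads, and the Gnas cluster around it 89732, 74364 and 59008.

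Starts differed by position as well. The window from 250 bases before to 50 bases after the start was CpG-rich (GC content of 50% or more and an observed to expected CpG ratio of 0.6 or more) in 46.7% of members and 70.4% of clusters with a symbol. It was so in 243 of the 265 head-to-head members, 91.7% (87.7 to 94.7%). Among single-exon members downstream of a gene on the same strand, 2.25% had such a window.

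**Figure D3:**
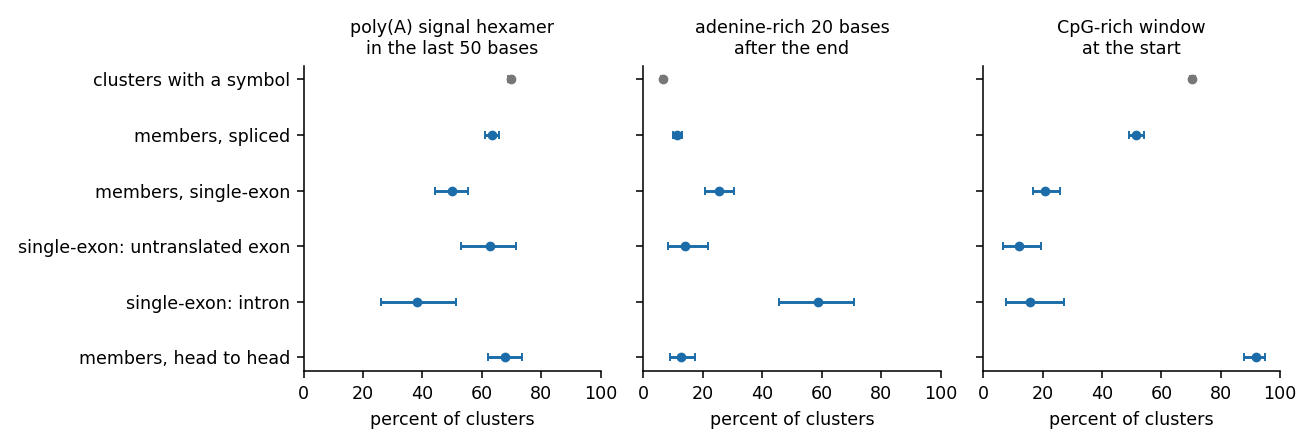
Percent of clusters (horizontal axes) with a poly(A) signal hexamer in the last 50 bases, with 12 or more adenines in the 20 bases after the end, and with a CpG-rich window at the start, by group (vertical axis). Points are shares and bars exact 95% binomial intervals. Intronic single-exon members stand at 58.7% for the adenine-rich end, against 6.47% of clusters with a symbol, and head-to-head members at 91.7% for the CpG-rich start.

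Few members differed 2-fold between libraries. A member was called when its log2(CPM + 1) values differed by at least 1, the 95% interval of its read ratio left out 1, and it reached 1 CPM in the higher library. CPM here is the read number after scaling for library size. The intervals cover counting error only. After both siRNAs, 28 of 1876 members were called higher than in control and 35 lower, where 1.05% of all clusters were called higher and 2.67% lower. The member shares were 1.49% and 1.87%. Of these members, 5 of the 28 and 2 of the 35 reached the minimum of 30 reads only through their highest library. After Ptbp1 siRNA alone, 8 of 1856 were higher and 4 lower than in control, where 0.269% and 0.455% of all clusters were called. Between both siRNAs and Ptbp1 siRNA, 6 of 1846 were higher and 6 lower, where 0.0891% and 0.342% of all clusters were called. Of these, 4 of the 6 higher and 1 of the 6 lower reached 30 reads only through their highest library, so the read minimum favoured them and nothing is read from the member share. The pairs share libraries, so these counts are not independent.

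The median log2 difference of members was 0.01 after both siRNAs against control, -0.01 after Ptbp1 siRNA against control and 0.02 between the knockdowns, and the medians of all clusters were -0.01, -0.01 and 0.00. Scaled by library totals instead, 36 members were called higher and 24 lower after both siRNAs, so the balance of directions depends on the scaling. Over all clusters that scaling called 1.44% higher and 2.10% lower. Without the members that have near-identical copies over at least 50% of their exon bases, 28 were called higher and 30 lower. By class, the 28 higher members comprised 15 in coding genes, 5 in noncoding genes, 5 with no annotated gene and 3 others. The 35 lower members comprised 15 in coding genes and 12 parts of larger or other genes, with 3 in noncoding genes and 5 others. Of the members in coding genes that reached 1 CPM, 1.68% were called in each direction. In noncoding genes 1.64% were higher and 0.987% lower, and with no annotated gene 3.97% and 1.59%. For parts of larger or other genes the shares were 0.224% and 2.69%, beside 1.05% and 2.67% of all clusters. In 16 members of each direction the higher library was under 10 CPM.

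Among the members called lower after both siRNAs, uc008xbx.1 had the largest difference on the log2(CPM + 1) scale, which understates low counts. It is a single exon at chr5:34516539-34517340 in the untranslated exon of Mxd4, which encodes a repressor that pairs with Max, and it had 451, 177 and 98 reads. Its CPM was 4.30-fold lower than in control (3.45 to 5.40), and 2.83-fold lower after Ptbp1 siRNA alone (2.37 to 3.39). The Mxd4 cluster upstream had 706, 294 and 157 reads, a log2 difference of -1.97 beside -1.95 for the member. Member and gene were lower together in both knockdown libraries.

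The spliced uc009ayj.1 is annotated as Thsd7a, a membrane protein with thrombospondin repeats, at chr6:12301982-12699024. It had 1609, 1128 and 436 reads, 3.45-fold lower after both siRNAs than in control (3.10 to 3.84) and 2.18-fold lower than with only Ptbp1 targeted (1.95 to 2.43). Its nearest symbol cluster, Phf14, had 1260, 1213 and 1061 reads. The difference at Thsd7a was thus larger between the knockdown libraries than between Ptbp1 siRNA and control, where it was 1.58-fold. The spliced uc007llv.1 in Zfp385c, a zinc finger gene, had 106, 90 and 23 reads and was 4.31-fold lower than in control (2.72 to 7.08). The nearby Nkiras2 on the other strand had 1287, 965 and 777. The spliced uc008uri.1 is Epha10, an ephrin receptor, and had 79, 88 and 22 reads, 3.35-fold lower than in control (2.07 to 5.65), while its neighbour Cdca8 had 2899, 3340 and 2670.

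Other members called lower include uc008can.1 at chr17:34112135-34115735, the MHC class I pseudogene H2-K2, with 241, 155 and 68 reads and a 3.31-fold difference (2.52 to 4.40). Its nearest symbol cluster, Vps52, had 481, 670 and 640. The spliced uc009sps.1, whose end is printed above, lies at chrX:8906101-8909733 with no annotated gene and had 86, 54 and 19 reads, 4.23-fold lower (2.55 to 7.36), and its nearest symbol cluster, Xk, had 3, 3 and 4. The spliced uc007drp.1, part of the pyrin-domain gene Pydc4, had 377, 228 and 122 reads and was 2.89-fold lower (2.35 to 3.57), and its nearest symbol cluster, Pyhin1, had 0 in all libraries. With the most reads, Malat1 (uc008gfj.1) had 32671, 20757 and 12602, a 2.42-fold lower CPM (2.37 to 2.47), and uc009krv.1 had 12224, 9556 and 4866, a 2.35-fold lower CPM (2.27 to 2.43). All of these were lowest in the library with both siRNAs. Of the exon bases of uc009krv.1, 25.8% have a near-identical copy elsewhere in the genome.

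**Figure D4:**
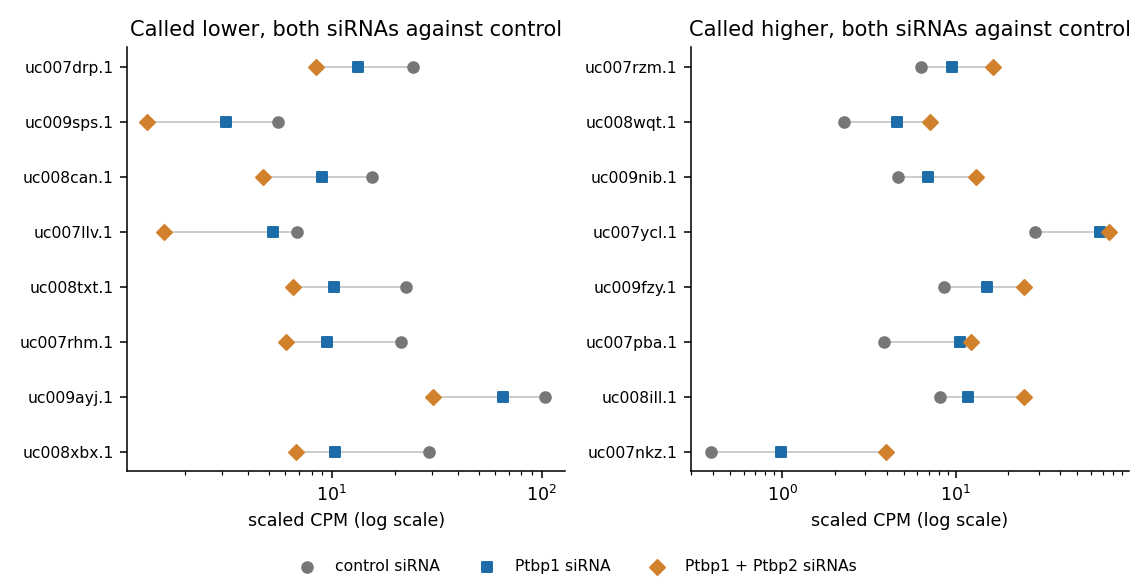
Scaled CPM (horizontal axes, log scale) of the 8 members with the largest difference called lower (left) and higher (right) after both siRNAs against control, with at least 50 reads in the pair. Grey circles are the control library, blue squares Ptbp1 siRNA and orange diamonds both siRNAs. Each symbol is 1 library, without error bars, and in all 16 the Ptbp1 siRNA library lies between the other two.

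On the log2(CPM + 1) scale the largest difference among members called higher was that of uc007nkz.1, at low counts. Its control and Ptbp1 siRNA libraries together held fewer than 30 reads, so it was a member only through the library in which it was high, and the same holds for uc009akc.1 and uc007cih.1 below. This spliced member at chr12:40949345-40951825, within a gene model named Gm7008, had 6, 17 and 57 reads, 10.2-fold higher after both siRNAs than in control (4.40 to 28.9) and 3.99-fold higher than after Ptbp1 siRNA alone (2.29 to 7.31). Its neighbour Ifrd1, a transcriptional coregulator, had 1701, 2140 and 2253. The single-exon uc008ill.1, annotated as the coding gene 2810030E01Rik, had 125, 203 and 358 reads, 3.07-fold higher (2.49 to 3.79), beside Mllt10 with 1380, 1413 and 961. The spliced uc009fzy.1, annotated as Rinl, a Ras and Rab interactor-like protein, had 133, 261 and 356 reads, 2.87-fold higher (2.34 to 3.52), beside Sirt2 with 728, 752 and 670. In none of the 3 did the neighbouring cluster pass the call.

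Of the other members called higher, uc009nib.1 at chr8:111050837-111061026 had no annotated gene and 72, 119 and 190 reads, 2.82-fold higher (2.14 to 3.76). Its nearest symbol cluster, Zfhx3, lay 177517 bases away and had 4367, 4439 and 4345. The lincRNA gene 2700038G22Rik, uc008wqt.1, had 35, 79 and 102 reads, 3.12-fold higher (2.11 to 4.72), beside Tomm7 with 909, 723 and 692. The single-exon uc007rzm.1 had 98, 164 and 238 reads, 2.60-fold higher (2.05 to 3.32), beside Paip1 with 1663, 2062 and 2278. It covers nearly all of the coding gene model Gm7120, sharing 0.963 of their joined span, and annotated intron makes up the largest part of its bases. The spliced uc009akc.1, annotated as the noncoding gene 0610040B10Rik, had 10, 14 and 39 reads, 4.18-fold higher (2.05 to 9.38), and its head-to-head partner Zdhhc4 had 309, 375 and 351. In all 4 the Ptbp1 siRNA library lay between the other two.

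After Ptbp1 siRNA alone, the 8 members called higher were all spliced, and the 4 called lower all had a single exon. Of all members 84.1% were spliced, and uc007rhm.1 and uc008txt.1 of the lower ones match the same stretch of Actg1. Nothing is read from this split by structure. Among the higher ones, uc007pba.1 is Rian, an imprinted noncoding RNA that hosts snoRNAs, at chr12:110858537-110899921. It had 60, 181 and 177 reads, 2.72-fold higher after Ptbp1 siRNA (2.02 to 3.70) and 3.16-fold higher after both (2.34 to 4.31), and its neighbour Rtl1 had 15, 16 and 15. The coding gene Mettl22, a methyltransferase, is uc007ycl.1 and had 444, 1157 and 1105 reads, 2.35-fold higher after Ptbp1 siRNA (2.10 to 2.62), beside Abat with 1778, 1518 and 1525. Fam163a, uc007dce.1, had 501, 1281 and 1054 reads, 2.30-fold higher (2.07 to 2.56), beside Tor1aip2 with 1408, 1682 and 1176. Between the knockdown libraries the CPM of these 3 differed by 1.16-fold, 1.14-fold and 1.02-fold.

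Prrt4, a proline-rich transmembrane protein gene, is uc009bcz.1 and had 59, 170 and 124 reads, 2.59-fold higher after Ptbp1 siRNA (1.92 to 3.55), beside Rbm28 with 1192, 1416 and 1238. The spliced uc009auf.1 at chr5:151402507-151409578, with no annotated gene, had 124, 328 and 252 reads, 2.38-fold higher (1.93 to 2.95). Its nearest symbol cluster, Brca2, had 484, 872 and 825, a log2 difference of 0.68. The other 3, uc007eqa.1, uc009dsv.1 and uc008gps.1, had 13, 20 and 14 reads in control and 50, 67 and 53 after Ptbp1 siRNA. Their nearest symbol clusters, Rps12, Zfp384 and Syt7, had 1377, 745 and 209 reads in control and 1303, 819 and 212 after Ptbp1 siRNA. Members called the same way in both pairs with control numbered 9, and those pairs share the control library. No such count over all clusters is given here, so nothing is read from this number.

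The 4 called lower after Ptbp1 siRNA were uc008xbx.1 above, uc007rhm.1, uc008txt.1 and uc009coe.1. Of these, uc007rhm.1 and uc008txt.1 are copies of the same stretch of Actg1, described below, and cannot be taken as separate measurements. The member uc009coe.1 lies at chr6:83718884-83720333 in the untranslated exon of Tex261, 76 bases past the Tex261 cluster. It had 476, 236 and 275 reads, 2.24-fold lower after Ptbp1 siRNA (1.91 to 2.63), while Tex261 itself had 772, 903 and 1008. On the log2 scale the piece differed by -1.11 and the gene cluster by 0.07.

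Between the knockdowns, 4 of the 6 members called higher in the library with both siRNAs met the minimum of 50 reads in the pair for naming. Beside uc007nkz.1, uc008ill.1 and uc009akc.1 this was uc008ouk.1, the gene Egfem1, with 23, 18 and 47 reads, 3.11-fold higher than after Ptbp1 siRNA alone (1.77 to 5.68), and its neighbour Gm1527 had 0, 1 and 0. Of the lower ones, uc008ckl.1, an MHC-region gene model, had 62, 75 and 24 reads, 2.63-fold lower (1.64 to 4.35), beside H2-T3 with 6, 4 and 2. The member uc007cih.1, at the read minimum, had 5, 2 and 23 reads. It overlaps an annotated U4atac gene, for a small nuclear RNA of the minor spliceosome, and Clasp1 on the opposite strand, and its ratio between the knockdowns was 13.7 with an interval from 3.38 to 120.

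Among noncoding members with a gene name other than a clone name, 28 in all, 2 were called after both siRNAs, Malat1 lower and Rian higher, counts too small to set against the 2.67% and 1.05% of all clusters. Xist, the RNA of X inactivation, is uc009tzo.1 with 15296, 16847 and 13105 reads and log2 differences of -0.01 and -0.12 against control. Snhg genes, spliced hosts of snoRNAs, made up 8 members with control levels from 0.230 to 29.8 RPKM. None was called in any pair, with log2 differences from -0.06 to 0.60 after both siRNAs. In all, 79 members had a small RNA gene inside their span, 32 of them in coding and 29 in noncoding genes, and 3 of the 79 were called higher and 0 lower after both siRNAs, beside 1.05% and 2.67% of all clusters.

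Single-exon members just downstream of a gene differed between libraries much as that gene did. Of 89 such members, 57 lay in the same annotated gene as the cluster upstream, all of them mainly in its untranslated exon, at gaps from 11 to 4520 bases. Their median was 61.6 reads per 100 reads of the upstream cluster in control, 50.5 after Ptbp1 siRNA and 55.9 after both. These medians do not follow each piece from library to library. The ratios per piece, given below, went the other way after both siRNAs, with a median log2 of 0.21. Over the 85 single-exon members whose pair of clusters reached 1 CPM, the log2 differences of member and upstream cluster after both siRNAs correlated with Pearson's r of 0.68 and Spearman's rho of 0.64. Over the 108 spliced downstream members the values were 0.06 and 0.05. These are descriptions across clusters of the same libraries, which share scaling.

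**Figure D5:**
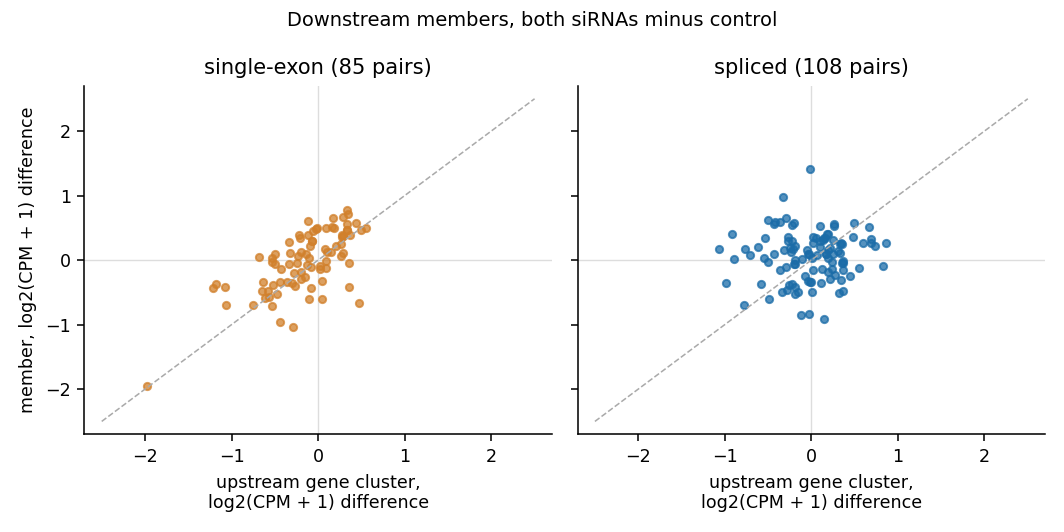
Log2(CPM + 1) difference, both siRNAs minus control, of downstream members (vertical axis) against that of the symbol cluster upstream on the same strand (horizontal axis), for 85 single-exon members (left) and 108 spliced members (right). Each point is a member and the dashed line marks equal differences. Single-exon members lie along the line (r of 0.68), with Mxd4 at the lower left, and spliced members do not (r of 0.06).

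Within the 57 pieces, the ratio of piece to gene differed between libraries in a part of the set. After both siRNAs against control the median log2 ratio of ratios was 0.21, and the 95% interval lay above 1 for 20 pieces and below 1 for 5. After Ptbp1 siRNA alone the median was -0.02, with 2 above and 10 below. Between the knockdowns it was 0.23, with 21 above and 2 below. The largest by reads was uc007rpq.1, where the Mtap1b piece had 5845, 7670 and 8330 reads and the Mtap1b cluster 25330, 26524 and 21826, a ratio 1.65 times that of control (1.59 to 1.72).

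At uc007dlt.1 the piece of Ddr2, a collagen receptor kinase, had 982, 1078 and 703 reads while the gene had 1078, 1339 and 437, a ratio 1.77 times that of control (1.52 to 2.05). At uc009bli.1 the piece of Jhdm1d, a histone demethylase, had 1224, 1026 and 840 reads and the gene 718, 507 and 281, a ratio 1.75 times that of control (1.48 to 2.07). At Ddr2 and Jhdm1d the body was lower after both siRNAs by more than the piece was. The opposite was seen at uc009coe.1, where the Tex261 ratio was 0.442 times that of control (0.370 to 0.529), and at uc008oeg.1, where the piece of Rab22a, an endosomal GTPase, had 506, 392 and 307 reads and the gene 870, 1019 and 842 (0.627 times, 0.526 to 0.746). These examples were chosen after their values were seen. Evenness of coverage along transcripts cannot be read from the table, so its part in these ratios was not tested.

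Members in the other positions followed their neighbours less closely than single-exon downstream members did. For 242 head-to-head pairs, the log2 differences of member and neighbour after both siRNAs correlated with Pearson's r of 0.14, and 178 of the 242 differed by less than 1.5-fold between member and neighbour. For the single-exon downstream members this was 73 of 85. For 191 members overlapping a gene on the opposite strand r was 0.12, and for 130 members overlapping one on the same strand it was 0.29. Of the latter, the 59 spliced members had an r of 0.41 and the 71 single-exon members 0.18. Levels differed among the classes, with control medians of 4.77 RPKM for all downstream members and 1.86 RPKM for head-to-head members. Members with opposite-strand overlap had 0.862 RPKM and those with same-strand overlap 1.54 RPKM. The part of these levels in the correlations was not tested.

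Some members were near-identical copies of expressed genes. Exon sequence was at hand for 1049 members. These had a single exon, an annotated transcript of the same span and length, or annotated exons inside the span of similar total length. For the last kind the exons searched are approximate. At least 50% of the exon bases of 84 of the 1049 had another copy in the genome at 95% identity or more. Of the 84, 57 had a single exon, and their median control level was 10.7 RPKM against 2.08 RPKM for all members. A symbol cluster lay at a copy of 59 of them, and after both siRNAs 48 of the 59 were within 1.5-fold of the difference of that cluster. Most members differed little, with 81.6% of all members that reached 1 CPM within 1.5-fold of control, so this count says little. The differences of these members and clusters correlated with Pearson's r of 0.52 and Spearman's rho of 0.43, and some clusters served several members. How reads that match several places were assigned is not given in the sources used here, so reads of these members and of the genes they copy cannot be told apart.

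Among the 35 members called lower after both siRNAs, 5 had such copies, and 3 of these were copies of Actg1, which encodes cytoplasmic gamma-actin. The single-exon uc007rhm.1 (chr13:81204927-81205465) had 332, 163 and 87 reads, 3.56-fold lower than in control (2.81 to 4.57). The single-exon uc008txt.1 (chr4:103237255-103237797) had 347, 175 and 94, 3.45-fold lower (2.74 to 4.38), and the nearby uc008txs.1 had 61, 28 and 16. Both uc007rhm.1 and uc008txt.1 match the same stretch of Actg1, from chr11:120207041 to 120207579 and to 120207583. They cannot be taken as separate measurements. The symbol clusters nearest to the first pair, Gpr98 and Dab1, had 26, 30 and 11 reads and 1, 4 and 15 reads. The 349 bases of uc008txs.1 are 100% identical to a stretch of a coding exon of Actg1 at chr11:120208266-120208614, and its first 60 bases at chr4:103236419-103236478, plus strand, are shown for that reason.
uc008txs.1: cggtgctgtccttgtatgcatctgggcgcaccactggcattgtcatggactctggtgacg
The Actg1 cluster itself had 1953, 1630 and 1064 reads, a log2 difference of -0.77 after both siRNAs, beside -1.68, -1.64 and -1.23 for the 3 members. Another, uc008kht.1, had 796, 684 and 350 reads and is a 100% copy of sequence at a cluster named Eno1, after the glycolytic enzyme enolase, with 7165, 5937 and 3686 reads. In none of these was the symbol cluster at the copy called lower. The last of the 5, the spliced uc009gby.1, annotated as the sperm channel gene Catsperg2, had 36, 32 and 8 reads, a log2 difference of -1.10 (fold interval 1.92 to 10.5), and no symbol cluster lay at its copy.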

How the data were processed

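Poly(A)+ RNA of CAD cells was sequenced as 36-base pairs 72 h after transfection, 1 library per group, with groups taken from the transfection labels. Per the file headers, the deposited table holds net read counts per gene cluster and the authors' RPKM. The build, mm9, is from the submitters' processing notes. Values below 0 occur in 38 clusters, which plain counts cannot have, so the counts were treated as approximate. The authors' RPKM divide by totals of 24167120, 25649604 and 21572838. Aligner, counter and gene set are not given in the sources used here. Table starts are 1-based and ends lie 1 past the last base, checked against GENCODE vM1.

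The 27224 clusters with a length and no negative value were scaled by trimmed mean of M values (numpy 2.4.6; 30% of M and 5% of A trimmed), giving factors of 0.967, 1.02 and 1.02. Thus 1 CPM is 15.5, 17.2 and 14.5 reads, and 3 reads are 0.194, 0.174 and 0.207 CPM. Differences use log2(CPM + 1), which understates those of low clusters; folds are CPM ratios with exact (Clopper-Pearson, conditional binomial) 95% intervals from scipy 1.17.1, for counting error only, since PCR reads are not independent molecules. The procedure was tested on simulated data.

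Members and lists were chosen with earlier results of these data known. Named members are the 8 with the highest mean RPKM, up to 8 called per pair and direction with 50 or more reads, the 4 with most reads per structure and overlap class, the 3 longest, and those at the read minimum. Other named members were chosen after their values were seen. Copies were sought with minimap2 2.31, sequences read with pysam 0.24.0 from the mm9 (NCBIM37) genome. Repeat content was not computed because the genome copy carries no repeat masking. Alternatives covered the pseudocount, filter, scaling, fold limit, read minimum and overlap rule.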

Additional observations from a re-analysis of the deposited data

How the results depend on the processing

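No paired analysis was possible because each group had 1 library, and leaving out a library removes a group. The counts of called members (12 after Ptbp1 siRNA, 63 after both, 12 between the knockdowns) moved most with the pseudocount and the fold limit. A pseudocount of 0.1 CPM gave 67, 171 and 51, one of 5 CPM gave 3, 15 and 1, a limit of 1.5-fold gave 139, 345 and 119, and a limit of 3-fold gave 0, 6 and 0. Between the knockdowns a filter at 5 CPM gave 4 and a minimum of 100 reads gave 5. Over all clusters that filter called 0.0536% higher and 0.286% lower. Scaling by library totals put the median log2 difference at 0.0541 for Ptbp1 siRNA and 0.0728 for both siRNAs against control. Other planned scalings and filters kept these counts within 1.5 times. The median control RPKM was 1.17 at a minimum of 10 reads, 4.02 at 100 reads and 3.24 from CPM per kilobase of this work. The median length was 1902 and 2397 bases at those minimums, and the overlap share 22.6% and 16.0%, or 14.1% when 0.5 of the span had to be shared. The single-exon share stayed between 14.8% and 16.8%. No named member reversed direction. Of 36 named calls, 23 fell short at a pseudocount of 5 CPM, 30 at 3-fold, 8 with the filter at 5 CPM and 1, uc008txt.1 after Ptbp1 siRNA, with library totals. Without members with copies over at least 50% of their exon bases the counts were 10, 58 and 12. Without members overlapping each other they were 11, 61 and 12, and both settings were chosen after seeing the data. Depth limits members near 30 reads, where only large differences could be called.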
